A study of Mus musculus with 14 samples.

Results

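The small structural RNAs of mouse embryonic stem (ES) cells were followed across 14 total RNA libraries. The members were chosen by symbol alone: every gene of the deposited table named Snora, Snord or Scarna followed by a number, together with Rpph1, Rmrp and Terc. They numbered 117 of 23298 genes, namely 36 Snora, 69 Snord and 9 Scarna genes and the 3 others. Rn7sk, the 7SK RNA, was also named by the rule and was not analysed here. A mean of at least 1 over the lines was needed for testing, and 93 members had it: 32 Snora, 50 Snord, 8 Scarna, Rpph1, Rmrp and Terc.

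Each library came from an ES cell line grown from a single blastocyst of a cross between C57BL/6J and CAST/EiJ mice, and all lines were undifferentiated and untreated. The BC lines had a C57BL/6J mother and a CAST/EiJ father, with 3 XX lines, 3 XY lines and 2 XO lines, and the CB lines had a CAST/EiJ mother and a C57BL/6J father, with 3 XX and 3 XY lines. Lines of both crosses therefore carry a haploid autosome set from each strain, and they differ in the parent each set came from, in the mitochondria and, in XY lines, in the strain of the X and of the Y. All lines were kept in serum with leukemia inhibitory factor on mouse embryonic fibroblast (MEF) feeder cells, which were reduced by 2 rounds of plating before RNA isolation, and the XO lines arose spontaneously in culture. Lines are named here by cross, sex chromosomes and number, and the numbers of the CB XX lines only follow the order of their columns. Libraries were prepared in batches, but which line was in which batch is not given in the sources used here, so cross and preparation batch cannot be told apart.

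Small nucleolar RNAs (snoRNAs) guide the chemical modification of ribosomal RNA. Box C/D snoRNAs (Snord) direct ribose methylation by fibrillarin, box H/ACA snoRNAs (Snora) direct pseudouridylation by dyskerin, and the small Cajal body RNAs (Scarna) direct both reactions on spliceosomal RNAs. Nearly all mouse snoRNAs are cut from introns of host genes, many of which encode ribosomal proteins or are noncoding Snhg genes. Rpph1 is the catalytic RNA of RNase P, which trims the leading end of transfer RNA precursors, Rmrp is the RNA of RNase MRP, which cuts precursor ribosomal RNA, and both are made by RNA polymerase III from genes of their own. Terc is the template RNA of telomerase, made by RNA polymerase II from its own gene.

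The sequences below are those of members that differed between groups, with the relative Snord49a beside Snord49b because both lie in introns of 2410006H16Rik. They were read from mm9 on the transcribed strand and are written 5′ to 3′. Capitals mark the ACA box in Snora genes and the boxes TGATGA (C) and CTGA (D) in Snord genes. In Terc, capitals mark the 8 bases CCTAACCC, the template for the telomere repeat, which begin at base 28. Rmrp lies at chr4:43505660-43505930 on the minus strand beside Ccdc107 and carries no marked motif. For Terc, at chr3:96218360-96218782 on the minus strand, the first 120 of 423 bases (chr3:96218663-96218782) are shown. The Snora genes lie at chr11:97642953-97643089 (minus strand, in Rpl23), chr2:26493367-26493505 (minus, in Snhg7), chr4:131866155-131866284 (plus, in Snhg12) and chr17:24856621-24856748 (minus, in Snhg9). The Snord genes lie at chr11:62416581-62416652 and chr11:62416952-62417023 (both plus, in 2410006H16Rik) and at chr7:52382752-52382834 (minus, in Rpl13a).
Rmrp: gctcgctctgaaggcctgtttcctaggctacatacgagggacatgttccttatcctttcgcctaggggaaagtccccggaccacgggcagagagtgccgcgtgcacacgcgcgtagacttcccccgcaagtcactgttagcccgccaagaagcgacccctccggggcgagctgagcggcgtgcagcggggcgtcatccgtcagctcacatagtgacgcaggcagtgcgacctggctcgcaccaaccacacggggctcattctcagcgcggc
Terc: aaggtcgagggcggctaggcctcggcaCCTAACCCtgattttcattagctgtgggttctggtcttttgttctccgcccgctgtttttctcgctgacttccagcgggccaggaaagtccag
Snora21: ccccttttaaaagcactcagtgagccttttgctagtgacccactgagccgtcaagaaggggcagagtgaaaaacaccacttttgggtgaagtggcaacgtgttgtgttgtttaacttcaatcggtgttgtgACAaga
Snora43: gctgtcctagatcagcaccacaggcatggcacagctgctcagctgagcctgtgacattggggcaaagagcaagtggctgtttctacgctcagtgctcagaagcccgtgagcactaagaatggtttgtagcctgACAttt
Snora61: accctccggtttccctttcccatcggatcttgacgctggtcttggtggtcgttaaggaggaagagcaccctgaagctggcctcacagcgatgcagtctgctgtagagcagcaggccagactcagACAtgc
Snora78: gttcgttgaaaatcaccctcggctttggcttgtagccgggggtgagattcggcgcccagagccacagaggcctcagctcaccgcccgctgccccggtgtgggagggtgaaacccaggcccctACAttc
Snord49b: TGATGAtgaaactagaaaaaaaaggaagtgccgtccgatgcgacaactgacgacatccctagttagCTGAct
Snord49a: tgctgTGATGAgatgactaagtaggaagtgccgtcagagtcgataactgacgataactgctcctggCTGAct
Snord32a: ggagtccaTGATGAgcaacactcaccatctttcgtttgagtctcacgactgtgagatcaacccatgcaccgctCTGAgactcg

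The boxes mostly separated Snora from Snord genes, whose class names refer to these boxes, and did not separate the Scarna genes. Over the 99 members placed in the mm9 annotation, ACA within the last 10 bases was found in 30 of 32 Snora genes (93.8%) and 7 of 56 Snord genes (12.5%), beside 48.3% of the 1552 annotated snoRNA genes. TGATGA within the first 20 bases was found in 34 of 56 Snord genes (60.7%), in 0 of 32 Snora genes and in 19.1% of annotated snoRNA genes. CTGA within the last 15 bases was found in 51 Snord genes (91.1%) and 2 Snora genes (6.25%), beside 28.9% of annotated snoRNA genes. Both TGATGA and CTGA were found in 33 of 56 Snord genes (58.9%), beside 17.5% of annotated snoRNA genes. Of the 9 placed Scarna genes, 4 held ACA, 4 held TGATGA and 5 held CTGA in these places. Only the transcribed strand was searched, and the boxes looked for do not overlap in the printed sequences. Of the placed members, Terc alone held CCTAACCC, which 0.193% of annotated snoRNA genes held. Snord49a and Snord49b, both of 72 bases, shared 56 bases in the same order.

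All 10 ES cell markers examined were above 0 in every line, and so were all 15 fibroblast markers. The mean fibroblast marker level was 10.9 to 12.2 in BC XX lines and 7.92 to 9.73 elsewhere, on the log2(value + 5) scale. The deposited values are scaled read signals that sum to between 28150946 and 30657803 in a line. Low values fell on steps, and if 1 step is 1 read, depth was 24117740 to 69646376 reads in the BC XX and XY lines, 37709595 to 41577453 reads in the XO lines and 11904424 to 31997704 reads in the CB lines, so that 3 reads are worth a value of 1.22 to 7.37. CB XY 2 and CB XY 3 had a mean log2 level of 4 Y-linked genes of 3.96 to 5.67, against 7.25 to 8.82 in the other XY lines and 4.42 to 8.25 in XX and XO lines. Within each cross, BC XX 3 and CB XX 3 stood apart in several members. Counts of members called in BC against CB and in XX against XY lines are given with and without each of these pairs of lines.

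Small structural RNAs were unequally detected. Of the 117 members, 15 were listed at 0 in every line, 12 of them Snord genes, and 9 more had a mean under 1. Just above that limit were Snord37 (mean 1.22), Snora36b (1.24), Snord7 (1.26), Snord72 (1.33) and Snord85 (1.60), and just below it Snord73a (0.942), Snord123 (0.781), Snord71 (0.725), Snord91a (0.603) and Snora47 (0.420). These 10 were at 0 in 4 to 8 of the 14 lines. At the other end, 29 members had a mean of 100 or more and 8 a mean of 1000 or more.

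Levels were next compared per 100 bases over the 83 tested members with an annotated length. These are 64 to 423 bases long, and how evenly the libraries captured RNAs of such lengths was not tested. Reads over members in introns may also come from unspliced RNA of the host. The order is therefore one of signal. Members called most abundant below are those with the highest mean values before division by length. Rmrp was highest, at a mean value of 33216 per 100 bases over the 14 lines. Snora78 followed at 975, Scarna13 at 861, Snord17 at 837 and Snord15b at 766, and Terc reached 507. Rpph1, whose length is not in the annotation used here, had the highest value of all members before any division by length, with a mean of 116683. The median over a class was 68.7 for 29 Snora, 30.5 for 44 Snord and 72.4 for 8 Scarna genes, on the same per 100 base scale. Snora74a (685.8) and Snord34 (686.7), a guide in an intron of Rpl13a, were also among the highest, as was Snord22 (679), processed from Snhg1.

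The first question was whether the BC and CB lines differ in these RNAs. RNase P RNA, RNase MRP RNA, telomerase RNA, 7 box H/ACA snoRNAs, 2 box C/D snoRNAs and 2 Cajal body RNAs were higher in CB lines, by 1.67-fold for Scarna17 to 6.95-fold for Rpph1. The count was 14 of 93 members (15.1%), all higher in CB and 0 lower, by limma with Benjamini-Hochberg adjustment over 18485 genes at 0.05. Over all genes, 13.6% were called in either direction, 7.8% as higher in CB and 5.82% as lower. The members' share in either direction was thus near that of all genes, but all of their calls were in 1 direction. At 0.01, 6 members (6.45%) were called as higher in CB, beside 1.87% of all genes. The median difference, CB minus BC, was 0.23 over the members and -0.02 over all genes, and 69 of the 93 members were above 0.

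**Figure D1:**
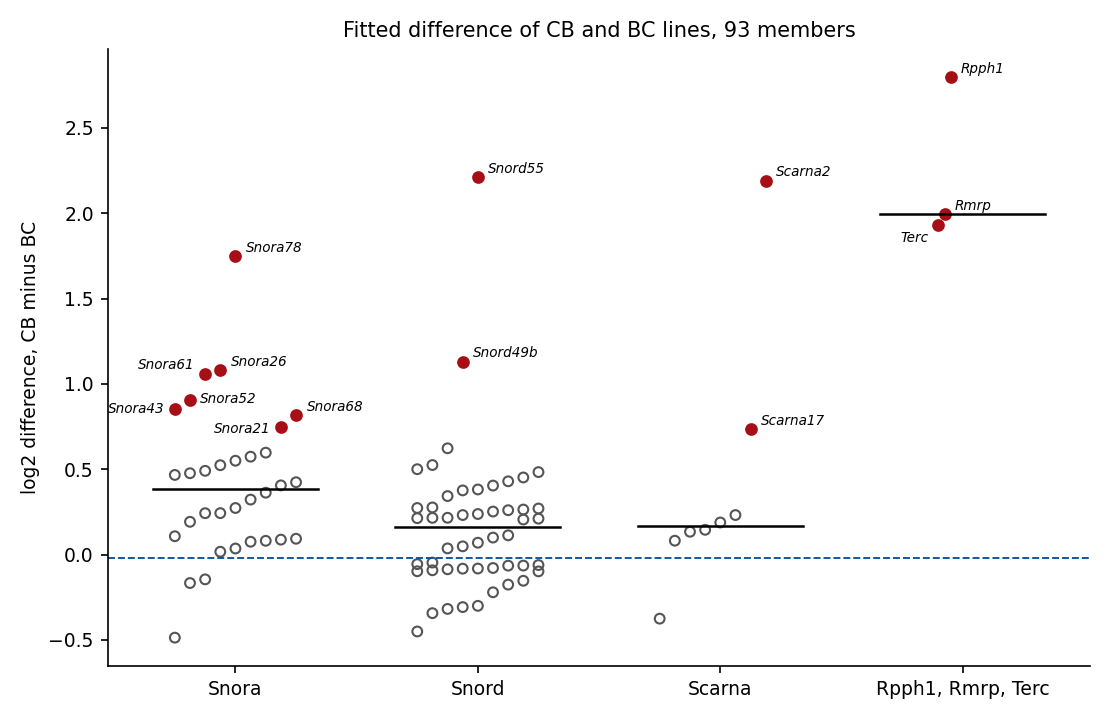
Fitted log2 difference, CB minus BC, of the 93 tested members by class. Filled points were called by limma at an adjusted p under 0.05, open points were not, solid bars are class medians and the dashed line is the median of all 18485 genes. All 14 filled points lie above the dashed line, and the enzyme RNAs, Scarna2 and Snord55 lie highest.

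By class, 7 of 32 Snora genes were called and 29 were above 0, with a median of 0.38. Of 50 Snord genes 2 were called and 30 were above 0, with a median of 0.16. The Scarna genes had 2 of 8 called and a median of 0.17, and Rpph1, Rmrp and Terc were all called. Of the 83 tested members with an annotated length, which do not include the called Rpph1, Snord55 and Snora26, 2 of 41 members under 120 bases and 6 of 35 members of at least 120 but under 200 bases were called. Among the 7 members of 200 bases or more, Rmrp, Terc and Scarna2 were called, whereas Scarna10, Scarna13, Scarna6 and Snord17 were not and had differences of -0.38 to 0.24.

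Rpph1 had values of 30198, 18317 and 4824 in the BC XX lines, 51727, 53258 and 43371 in the BC XY lines and 67226 and 47516 in the XO lines. In the CB cross it had 280925, 193741 and 37324 in XX lines and 365752, 216926 and 222463 in XY lines. Every CB line but CB XX 3 was above every BC line, and CB XX 3 lay within the BC range. The mean was 219522 ± 108655 (SD, n = 6) in CB and 33616 ± 19410 (SD, n = 6) in BC XX and XY lines, and the fitted log2 difference was 2.80 (SE 0.46, 95% interval 1.81 to 3.78, adjusted p = 0.00318). The RNase P RNA-like genes Rprl1, Rprl2 and Rprl3, copies related to Rpph1, were higher in CB too, by 1.79, 2.77 and 3.45 log2 units (adjusted p = 0.00307, 0.00646 and 0.00307). Reads of such related copies may have been divided between them by the counting, so the level of each is uncertain. Rprl3 had 813 to 2003 in BC XX and XY lines apart from 133 in BC XX 3, and 9641 to 20054 in CB lines apart from 1491 in CB XX 3.

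Rmrp had 35308, 26951 and 9554 in BC XX, 41860, 64201 and 61900 in BC XY, 51348 and 34735 in BC XO, 221768, 118314 and 41881 in CB XX, and 257808, 157074 and 137503 in CB XY lines. Again CB XX 3 lay among the BC lines and the other 5 CB lines above all of them. The mean was 155725 ± 76781 in CB and 39962 ± 20919 in BC (SD, n = 6 each), a log2 difference of 1.997 (SE 0.37, 95% interval 1.21 to 2.79, adjusted p = 0.00582). The protein-coding genes next to these RNAs were looked at after the values of the RNAs had been seen. Parp2, beside Rpph1, was at 1233 to 1508 in BC and 1142 to 1444 in CB lines (log2 difference -0.09, adjusted p = 0.572), and Ccdc107, beside Rmrp, differed by 0.16 (adjusted p = 0.632).

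Terc had 1992, 1119 and 276 in BC XX, 974, 877 and 842 in BC XY and 913 and 1192 in XO lines. In CB lines it had 4302, 5126 and 1545 in XX and 5081, 2417 and 3341 in XY lines. Only CB XX 3 overlapped the BC lines, where BC XX 1 was higher. The log2 difference of Terc was 1.93 (SE 0.40, 95% interval 1.08 to 2.78, adjusted p = 0.00894). Its protein partner Tert, the reverse transcriptase, differed by 0.44 (adjusted p = 0.0793) and the telomerase-associated protein Tep1 by -0.03 (adjusted p = 0.897).

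**Figure D2:**
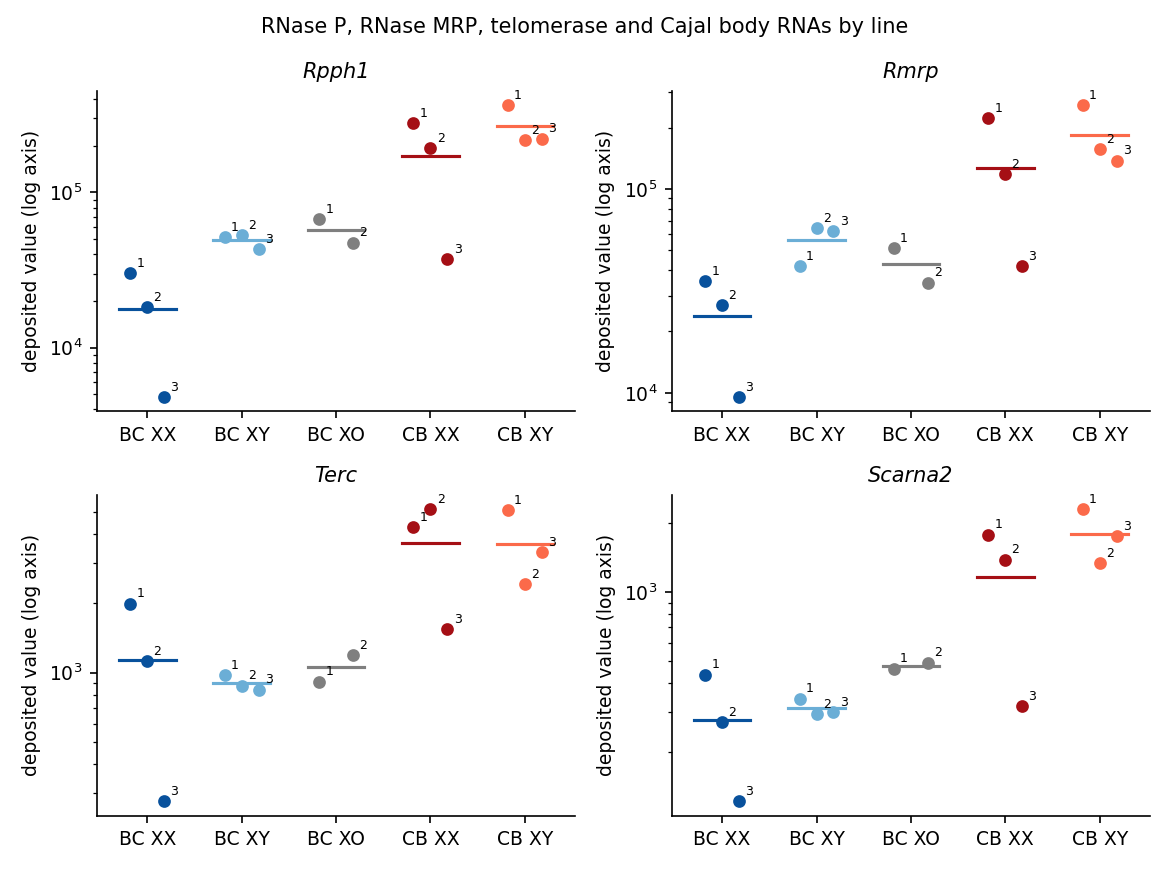
Deposited values of Rpph1, Rmrp, Terc and Scarna2 in each line on log axes, by group. Points are lines with their numbers and bars are group means. In all 4 panels CB XX 3 is the lowest CB line and BC XX 3 the lowest BC line.

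Among the Cajal body RNAs, Scarna2 had 435, 271 and 122 in BC XX, 342, 292 and 299 in BC XY and 463 and 491 in XO lines, and 1781, 1385, 316, 2300, 1341 and 1755 in CB XX and then CB XY lines. The value of 316 in CB XX 3 was inside the BC range and the other 5 were above it. Scarna2, for which no host gene was found, differed by 2.19 log2 units (SE 0.37, 95% interval 1.40 to 2.98, adjusted p = 0.00352). Scarna17 was higher by 0.74 (adjusted p = 0.0461), with 17.5 to 47.4 in BC XX and XY lines and 45.1 to 74.7 in CB lines. The other 6 tested Scarna genes were not called. Scarna13, the most abundant of them, had 1032 to 3077 in BC and 1418 to 3429 in CB lines, a difference of 0.08 (95% interval -0.43 to 0.60). Scarna6 differed by 0.19 (95% interval -0.26 to 0.64) and Scarna10 by -0.38 (-0.72 to -0.03, adjusted p = 0.136).

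Of the box H/ACA snoRNAs, Snora78 differed most. It had 695, 422 and 111 in BC XX, 963, 816 and 678 in BC XY, 740 and 1335 in XO, 2802, 1374 and 841 in CB XX and 3391, 1088 and 2218 in CB XY lines. Its log2 difference was 1.75 (SE 0.41, adjusted p = 0.0146), and CB XX 3 lay below BC XY 1. Snora26, within the noncoding gene Dancr, had 116 to 131 in BC XX, 197 to 231 in BC XY and 220 to 238 in XO lines, and 257 to 453 in CB lines, so that all 6 CB lines were above all BC lines. It was higher by 1.08 (SE 0.17, 95% interval 0.71 to 1.45, adjusted p = 0.0029). That CB lines are all above the BC XX and XY lines held for 2 members, Snora26 and Snord55 (2.15%), beside 1.34% of all genes, and the reverse order for 0 members, beside 1.22%.

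The other called Snora genes moved less. Snora61, in Snhg12, had 46.2 to 112 in BC XX and XY lines and 109 to 263 in CB lines (log2 difference 1.06, SE 0.25, adjusted p = 0.0153). Snora43 had 136 to 436 in BC and 378 to 810 in CB lines (0.85, SE 0.20, adjusted p = 0.0159), and Snora21 had 84.5 to 182 and 167 to 233 (0.75, SE 0.16, adjusted p = 0.0111). Snora52 (0.90, adjusted p = 0.0218) and Snora68 (0.82, adjusted p = 0.0329) also overlapped between the crosses. Snora74a, the most abundant Snora gene, showed a difference of 0.02 (95% interval -0.37 to 0.41). Snora17 and Snora7a, also among the most abundant, showed 0.49 (-0.01 to 0.99) and 0.60 (0.07 to 1.13) with adjusted p = 0.171 and 0.12.

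Among box C/D snoRNAs, Snord55 showed the largest difference. It had 5.95, 2.85 and 2.95 in BC XX, 2.50, 2.49 and 1.34 in BC XY, 3.19 and 4.98 in XO, 37.0, 47.5 and 13.3 in CB XX, and 38.4, 29.5 and 35.0 in CB XY lines. The lowest CB line was above the highest BC line, although BC values were low, at most 5.95. The log2 difference was 2.21 on the log2(value + 5) scale (SE 0.23, 95% interval 1.71 to 2.71, adjusted p = 0.000578), and the ratio of the mean values, without that added constant, was 11.1. Snord49b had 26.5 to 61.3 in BC XX and XY lines, 49.1 and 73.4 in XO lines and 48.7 to 153 in CB lines, a difference of 1.13 (SE 0.25, adjusted p = 0.0116). The most abundant Snord genes were not called, with differences of 0.24 for Snord17 (95% interval -0.04 to 0.52), -0.10 for Snord15b (-0.40 to 0.20), 0.28 for Snord22 (-0.41 to 0.96), 0.21 for Snord34 (-0.37 to 0.79) and 0.21 for Snord32a (-0.16 to 0.59).

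**Figure D3:**
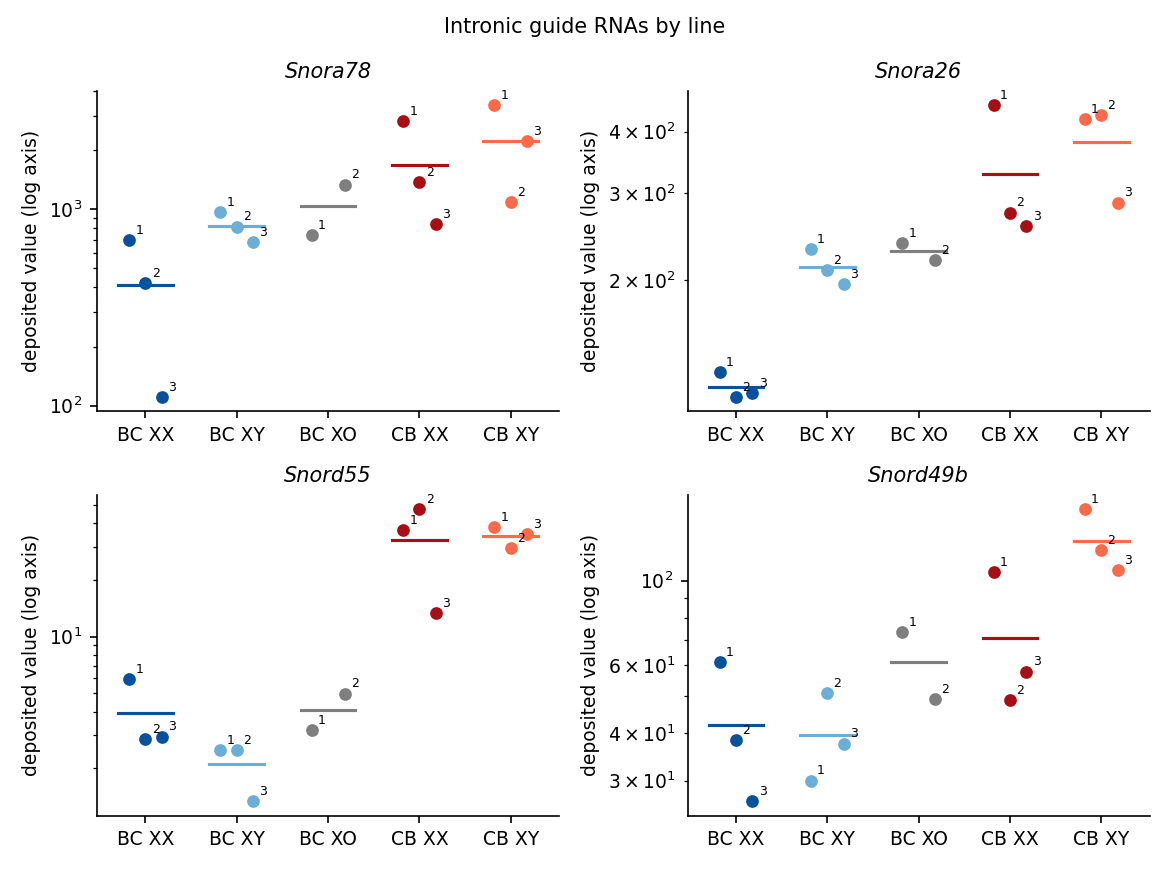
Deposited values of Snora78, Snora26, Snord55 and Snord49b in each line on log axes, by group. Points are lines with their numbers and bars are group means. Snora26 and Snord55 show no overlap of the crosses, whereas Snora78 and Snord49b do.

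CB XX 3 was the lowest CB line in 8 of the 14 called members, and BC XX 3 was the lowest BC XX or XY line in 10. Over all 93 members the counts were 13 (14.0%) and 33 (35.5%), beside 18.6% and 27% of all genes. The ratio of CB XX 3 to the median of the other 5 CB lines had a median of 0.531 over the called members and 1.06 over the others, and the same ratio for BC XX 3 was 0.521 and 0.894. For Rpph1 these ratios were 0.168 and 0.111. A low value in BC XX 3 helps a member to be called as higher in CB. Its count and ratio among the called members are therefore partly built in. With BC XX 3 and CB XX 3 left out, a choice made after their values were seen, 12 members were called as higher in CB and 1 as lower. The share of all genes called in that fit is not given here. The differences were then 2.86 for Rpph1, 2.04 for Rmrp, 1.79 for Terc and 2.33 for Scarna2. The 14 called members were picked for being higher in CB in the same values, so their separation is partly built in. With BC XX 3 and CB XX 3 left out, 8 of the 14 members were higher in all 5 CB lines than in all 5 BC lines. That held for 9 of 93 members in all (9.68%), beside 5.4% of all genes, and the reverse order held for 1 member, beside 3.11%.

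Depth moved with the cross, from 11904424 to 31997704 reads in CB and 24117740 to 69646376 reads in BC XX and XY lines. CB XX 3, with the low values, was the deepest CB line, and BC XX 3 had 29242348 reads. On the log2(value + 5) scale, BC XX 3 had the highest fibroblast marker level of all lines (12.17) and the lowest ES cell marker level (12.61). CB XX 3 had the highest fibroblast level (9.73, with CB XX 2 at 9.65) and the lowest ES cell level (13.06) of the CB lines. With depth as a covariate no member was called (0 of 93, 16 at an unadjusted p under 0.05 by limma), and no gene of the 18485 was. The differences were then 2.88 for Rpph1, 2.19 for Rmrp, 2.41 for Terc and 2.18 for Scarna2, each with an adjusted p of 0.206, whereas Snora52 went from 0.90 to 0.56 and Snora26 from 1.08 to 0.75. Of 15 fibroblast markers, 5 were called as lower in CB and 0 as higher (median -0.87), and of 10 ES cell markers 3 were called as higher and 0 as lower (median 0.45). With the fibroblast marker level as a covariate only Snord55 was called (adjusted p = 0.00541), while Rpph1 differed by 2.14 (adjusted p = 0.0921). Under that covariate Rmrp differed by 1.30 (adjusted p = 0.149), and Snora43 by 0.45, down from 0.85. XY lines alone gave 2 calls and XX lines alone 10, and 11 members were called, all as higher in CB, without CB XY 2 and CB XY 3. Shares of all genes called in these fits are not given here, so a change in the members cannot be told from one over all genes. The part of depth and of feeder cells in these differences was not tested further, and preparation batch cannot be told apart from cross.

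The members together took 0.0885% to 0.453% of all values in BC XX and XY lines, 0.338% to 0.447% in XO lines and 1.18% to 2.21% in CB lines other than CB XX 3, which had 0.340%. Rpph1 and Rmrp made up most of this, with 0.0501% to 0.398% in BC XX and XY lines and 0.279% to 2.11% in CB lines. Without them the share was 0.0384% to 0.0625% in BC XX and XY lines and 0.0610% to 0.101% in CB lines. The Snord share was steady by comparison, from 0.0179% to 0.0250% over all 14 lines. In bulk RNA, fewer cells that make an RNA and less of it per cell cannot be told apart.

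Host genes were then set beside the small RNAs they contain, for the 85 tested members in 64 hosts. The median difference of the members was 0.21 and that of their hosts 0.00, and 61 of 85 members had a larger difference than their host. Among the 9 called members with a host, 8 exceeded it and the medians were 1.06 and 0.25. These 9 were picked for their own differences and the hosts were not, so exceeding the host is partly built in. Rpl23, the host of Snora21, differed by -0.23 (adjusted p = 0.105), Dancr by 0.15 (adjusted p = 0.428) and Snhg9, the host of Snora78, by 0.33 (adjusted p = 0.376). Only 2 called members had a called host. Rplp2, which encodes a ribosomal stalk protein, was higher by 1.16 (adjusted p = 0.00949) with Snora52, and 2410006H16Rik by 0.69 (adjusted p = 0.00903) with Snord49b.

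Members cut from a shared host did not have equal differences. In 2410006H16Rik, Snord49b differed by 1.13, Snord49a by 0.62 (adjusted p = 0.0882) and Snord65, at values of 1.63 to 12.1, by 0.21 (adjusted p = 0.529). In Snhg12, Snora61 differed by 1.06, Snora44 by 0.48, Snora16a by 0.32 and Snord99 by -0.06, with only Snora61 called. In Snhg7, Snora43 differed by 0.85 and Snora17 by 0.49. The 4 members in Rpl13a differed by 0.07 to 0.45 and none was called. Differences between members of a host were not themselves tested. Over all 64 hosts, 7 were called as higher in CB and 1, Tpt1, as lower. This count of 8 of 64 is close to the 13.6% of all genes called in either direction.

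**Figure D4:**
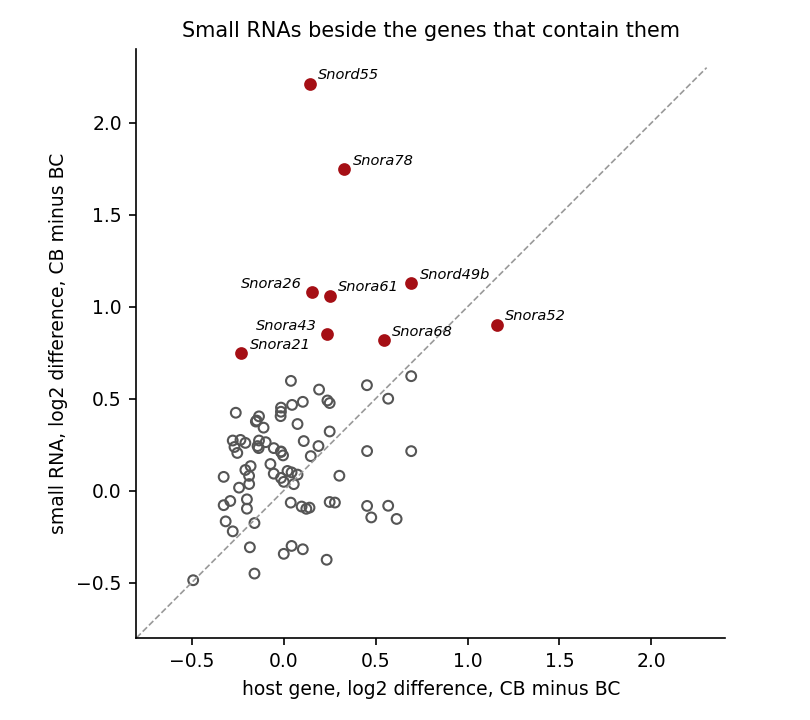
Fitted log2 difference, CB minus BC, of 85 small RNAs (vertical) against that of the gene containing each (horizontal). Filled points are small RNAs called at an adjusted p under 0.05 by limma, and the dashed line marks equal differences. Among the filled points, which were picked for their own difference, Snora52 alone lies below the line.

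Genes for proteins that bind or make these RNAs were described next. Of 54 such genes tested, 6 were called as higher in CB and 2 as lower, with a median of 0.10. This count of 8 of 54 is close to the 13.6% of all genes called in either direction. Among the 11 proteins of RNase P and MRP, Rpp25 was higher by 0.90 (adjusted p = 0.0028) and Pop7 by 0.76 (adjusted p = 0.0316). Among 12 genes for the transcription of small RNAs by RNA polymerase III and the binding of its products, Snapc2 (0.76), Brf2 (0.59) and Brf1 (0.41) were higher, and Ssb (-0.43) and Trove2 (-0.44), which encode the La and Ro RNA-binding proteins, were lower. Fbl, the box C/D methyltransferase, was higher by 0.46 (adjusted p = 0.0214), and no box H/ACA core protein was called. Of the other short RNAs, 6 of 86 microRNA genes were called as higher in CB and 1 as lower. The shares over all genes were 7.8% and 5.82%, and the microRNA median was 0.00. By limma, 0 of the 12 genes named Snhg or Gas5 were called. That list does not hold all noncoding hosts, since 2410006H16Rik and other hosts without an Snhg symbol are not in it. Of 7 other structural RNAs, Rprl1, Rprl2 and Rprl3 were called, and Vaultrc5, Rnu11 and Rnu12, the vault RNA and the small nuclear RNAs of the minor spliceosome, were not.

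The study's main comparison, XX against XY lines, called 3 members. Snord92 was higher in XX, and Snora74a and Snord32a were lower. That is 3.23% of the members, beside 12.5% of all genes, with 7.25% higher and 5.29% lower in XX. The median difference, XX minus XY, was -0.23 over the members and -0.01 over all genes, and 24 of 93 members were above 0. In 0 members were all 6 XX lines above all 6 XY lines, beside 2.1% of all genes, and in 0 members all below, beside 1.08%. Of the fibroblast markers, 11 of 15 were called as higher in XX, and the part of feeder cells here was not tested beyond the covariate, under which 0 members were called (12 at an unadjusted p under 0.05 by limma).

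Snora74a, cut from Snhg4, had 960, 1235 and 1214 in BC XX against 1831, 1425 and 1482 in BC XY lines, and 1389, 822 and 950 in CB XX against 2014, 2436 and 1119 in CB XY lines. The BC lines did not overlap and the CB lines did, and the XO lines were at 937 and 1004. The difference was -0.63 (SE 0.18, adjusted p = 0.0369). Snord32a had 212, 197 and 155 in BC XX, 368, 241 and 269 in BC XY, 300, 162 and 227 in CB XX and 370, 307 and 305 in CB XY lines. It had no overlap within either cross and differed by -0.58 (SE 0.18, adjusted p = 0.0449), and its host Rpl13a fell by 0.46 on the log2 scale (adjusted p = 0.0462). Snord92, in Wdr43, was at 1.42 to 7.86 in XX lines, at 1.25 to 4.69 in BC XY lines and at 0 in all 3 CB XY lines. Its difference was 0.63 (SE 0.18, adjusted p = 0.0365), and 3 reads were worth a value of 1.22 to 7.37, depending on the line.

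**Figure D5:**
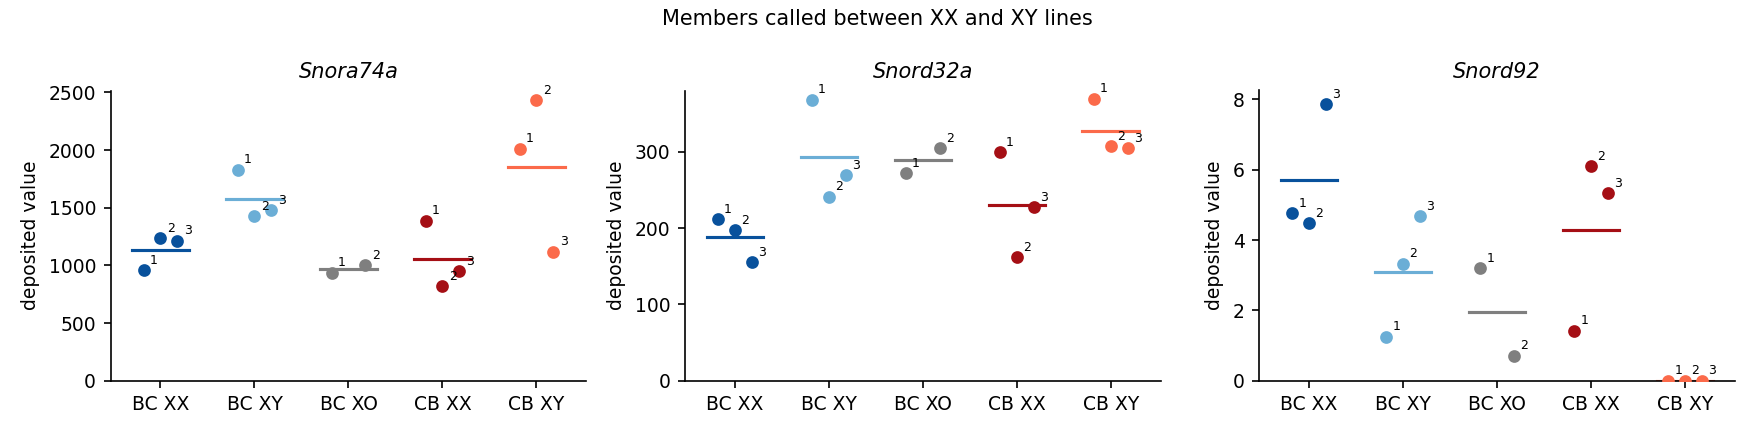
Deposited values of Snora74a, Snord32a and Snord92 in each line, by group, on axes that start at 0. Points are lines with their numbers and bars are group means. Snora74a and Snord32a lie lower in XX than in XY lines of the same cross on average, and Snord92 is at 0 in the CB XY lines.

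Each of these 3 calls was lost in most of the alternative fits, but not in all. The count was 0 in the BC cross alone and in the CB cross alone, 0 with depth as a covariate, 0 without BC XX 3 and CB XX 3, and 0 to 7 when a single line was left out. Without CB XY 2 and CB XY 3 it was 3, of which Snora74a was the only member of the original 3 (-0.72, adjusted p = 0.0389). Rpph1 and Rmrp were lower in XX by -1.43 and -1.09 log2 units without passing (adjusted p = 0.0546 and 0.0675), and both passed without BC XX 1 (adjusted p = 0.0269 and 0.0415) or without CB XX 1 (adjusted p = 0.0203 and 0.0164). Of 54 partner protein genes tested by limma, 2 were called as higher in XX and 3 as lower. Over all genes, 7.25% were called as higher and 5.29% as lower. The X-linked Dkc1, the box H/ACA pseudouridine synthase, was higher in XX by 0.48 (adjusted p = 0.00786) and Ssb by 0.37. Hexim1 (-0.76) and Mepce (-0.43), which bind 7SK, and Coil (-0.35), the Cajal body scaffold, were lower. The difference of XX and XY lines was not found to depend on the cross for any member (0 of 93 called by limma, beside 0.0649% of all genes called). For 4 members the unadjusted p was under 0.05, and the share of all genes at that limit is not given here.

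The XO lines were compared within the BC cross. Against XY lines, 0 of 93 members were called by limma, beside 0.00541% of all genes called. An unadjusted p under 0.05 was found for 4 members, and the share of all genes at that limit is not given here. Scarna10, a Cajal body RNA within Ncapd2, had 147 and 235 in XO and 502, 398 and 445 in XY lines, which did not overlap, and BC XX lines were at 220, 265 and 276. Its difference of XO from XY was -1.24 (95% interval -1.79 to -0.69, adjusted p = 0.854). Scarna6 showed -1.02 (95% interval -1.74 to -0.31, adjusted p = 1). XX against XO lines called 0 of 93 members by limma, beside 3.72% of all genes called. At an unadjusted p under 0.05 there were 6 members, and the share of all genes at that limit is not given here. The smallest adjusted p was that of Snora26, at 0.0772 with a difference of -0.89, and Rpph1 showed -2.03 (95% interval -3.58 to -0.47, adjusted p = 0.121).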

How the data were processed

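RNA of 14 undifferentiated ES cell lines was sequenced by the authors as stranded, ribosomal RNA-depleted total RNA libraries. Per the labels and the study's methods, reads were aligned to mm9 with TopHat2 and summarized with Cuffdiff. The deposited signal values, 1 per gene and line, had been normalized by the authors so that libraries of unlike depth have similar sums. Between 98.4% and 98.9% of low values (50 steps or fewer) were whole multiples, within 0.02, of the most frequent value of their line, which gave the estimate of depth.

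Here, limma 3.58.1 (R 4.3.3) was fitted to log2(value + 5) with trended variance and 5 groups, over 18485 genes with a mean of at least 1, after 15 genes listed at 0 in a whole group and at 100 or more elsewhere were left out (0 members). P-values were adjusted by Benjamini-Hochberg over all genes, and 0.05 was the threshold. BC against CB is given as CB minus BC, averaged over XX and XY, the reverse of the sign first planned. Each line is a separate blastocyst. Fits were tested on simulated data.

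Members and lists were chosen with earlier results of these data known. Named are Rpph1, Rmrp and Terc, the 5 highest members of each of Snora, Snord and Scarna, up to 8 called members in each direction (here all 14 called in BC against CB were named, the last ones after their values were seen), those called elsewhere, those next to a mean of 1, hosts and called partners. Snord49a, Snord65, Snord99, Snora44, Snora16a, Scarna10 and Scarna6 in the XO comparison, Tert, Tep1 and the neighbours Parp2 and Ccdc107 were named after values were seen. Hosts were taken from the mm9 annotation on the same strand or, where that gave no host in the table, from RefSeq gene positions without regard to strand.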

Additional observations from a re-analysis of the deposited data

How the results depend on the processing

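The 14 called members of BC against CB lines kept their direction in all 30 alternatives, and 11 of them were called in all 14 fits that left out a line. Scarna17 kept its call in 2 of these fits, Snora68 in 8 and Snora52 in 11. The count of 14 was 11 to 15 with a line left out, but 0 with depth as a covariate, 1 with the fibroblast level as a covariate and 2 in XY lines alone. The 3 calls of XX against XY lines became 1 with quantile normalization, 1 with no filter on low values, 0 with depth, 0 with the fibroblast level, 0 without BC XX 3 and CB XX 3 (chosen after seeing the data), 0 in the BC cross alone, 0 in the CB cross alone and 0 with sex as the only factor, and were 0 to 7 with a line left out: 0 without BC XX 2, BC XX 3, BC XY 2, CB XX 2, CB XY 1 or CB XY 2, 1 without BC XY 1, BC XY 3 or CB XX 3, and 7 without CB XX 1. XX against XO lines gave 0 to 1 with a line left out, 1 without CB XX 1 or CB XX 3, and XO against XY lines and the interaction gave 0 in each.

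The 8 called host genes became 2 in XX lines alone, 0 in XY lines alone, 0 with depth, 0 with the fibroblast level, 3 without CB XY 2 and CB XY 3, and 2 to 11 with a line left out (4 without BC XX 3, 2 without CB XX 1, 5 without CB XY 1). The 8 called partner proteins became 3 in XX lines alone, 0 in XY lines alone, 0 with depth, 0 with the fibroblast level, 3 without CB XY 2 and CB XY 3, and 3 to 13 with a line left out (13 without BC XX 1, 3 without CB XX 1, and 4 or 5 without BC XX 2, BC XX 3, BC XY 1, BC XY 2, CB XX 2 or any CB XY line). The 3 other structural RNAs became 0 with depth and 0 with the fibroblast level, and were 3 to 4 with a line left out. The cause of these changes was not tested. The median shares of the XX and XY lines of each cross moved by less than 1 SD when genes at 0 in a group were left out.

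No pairing by line number was seen among lines other than CB XX. Deviations of same-numbered lines correlated between -0.463 and 0.245 (median 0.013), and those of differently numbered lines between -0.463 and 0.463 (median -0.007). Deviations of lines within a group are tied to each other, so these ranges cannot exclude pairing. A fit with the line number as a replicate block, possible only without the CB XX lines, called 5 members in BC against CB lines, 0 of the hosts and 1 partner protein, and the same lines with no block (chosen after seeing the data) called 4, 0 and 1, and 1 member in XX against XO lines. The interaction could not be fitted there. A count test on recovered reads was not run, because whole reads could not be recovered for the table as a whole. Depth limits the lowest members, since 3 reads are worth up to 7.37.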
